A study of Mus musculus with 24 samples.

Results

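Matrix metalloproteinases (MMPs), the ADAMTS proteases and the tissue inhibitors of metalloproteinases (TIMPs) were described here as 1 set of 46 genes among the 54418 gene IDs counted in mouse intestinal stroma. The set holds every gene whose symbol is Mmp, Adamts or Timp followed by a number (for Mmp1, also a or b), which gave 23 Mmp, 19 Adamts and 4 Timp genes, and the choice used no measured value. RNA was measured by full-length RNA sequencing of cells that carried neither Epcam, an epithelial surface protein, nor CD45, a leukocyte surface protein. Cells of mouse colon and small intestine were sorted by CD31 (the product of Pecam1, on endothelium) and by GFP from an Rspo3 transgene that reports the R-spondin 3 gene. The 8 groups were CD31+RSPO3+, CD31+RSPO3-, CD31-RSPO3+ and CD31-RSPO3- cells of the colon and the same 4 fractions of the small intestine, with 3 libraries each. All groups came from mice of strain C57Bl6 aged 8 to 12 weeks that carried the same reporter, and no injury or treatment is given in the labels. Whether each library came from its own animal is not stated, and p-values therefore reflect the spread between libraries, which may be technical.

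MMPs are zinc proteases that cut collagens, laminins, proteoglycans and other matrix proteins, and most are made as inactive precursors. ADAMTS proteases are secreted relatives with thrombospondin repeats: several cut the large proteoglycans versican and aggrecan, others trim procollagen, and ADAMTS13 cuts von Willebrand factor. TIMPs bind the active site of MMPs, and TIMP3 also inhibits several ADAMTS proteases and stays bound to the matrix. In the gut wall most of these enzymes are made by fibroblasts, endothelium and recruited leukocytes, and MMP14 at the cell surface activates proMMP2 together with TIMP2.

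The library totals lay between 8462041 and 29214487 estimated counts. The fractions carried the markers of their gates. Pecam1 was between 347 and 1486 CPM (counts scaled to a common library size) in CD31+ libraries and between 8.18 and 43.9 CPM in CD31- libraries. The summed level of the lymphatic list (Prox1, Lyve1, Pdpn, Flt4, Reln, Mmrn1 and both Ccl21a IDs, 1 of them at 0 throughout) was 39947 to 50696 CPM in colonic CD31+RSPO3+ libraries, against 1911 to 2409.8 CPM in colonic CD31+RSPO3- libraries, and 29914 to 33976 against 3113 to 6002 CPM in the small intestine. The sum of 6 blood endothelial markers ran the other way, with 576 to 826 against 13042 to 17300.2 CPM in the colon and 290.4 to 349.9 against 10206 to 13262 CPM in the small intestine, while Cd300lg among them overlapped between these groups in both tissues. The summed level of 7 fibroblast markers was highest in CD31-RSPO3+ libraries of each tissue, although colonic Pdgfra was 550.4, 496 and 311 CPM there and 509.9, 692 and 601 CPM in CD31-RSPO3- libraries. Epcam, absent from the surface by the sort, was still measured at 326, 101 and 249 CPM in colonic and at 594, 686 and 1069 CPM in small intestinal CD31-RSPO3- libraries. Colonic CD31-RSPO3+ library 3 stood apart, with 197 CPM of Epcam and 72.8 CPM of Ptprc, the CD45 gene. Its sum of 3 plasma cell markers was 29463 CPM, against 1501 and 1226 CPM in the other libraries of its group. Its fibroblast sum was 34979 CPM, against 62736 and 64104 CPM. The Timp2, Mmp2, Mmp14 and Adamts1 values of this library, given below, were the lowest of its group, and the part of its marker levels in this was not tested. Colonic CD31+RSPO3- library 3 had a fibroblast sum of 9076 CPM, against 1353 and 1779 CPM in the other libraries of its group. In each comparison across fractions, fewer cells of a type and less RNA per cell cannot be told apart.

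The 46 genes differed widely in level. On the length-normalised TPM scale (transcripts scaled to a common total), the summed Timp level averaged 2285 ± 172 in colonic CD31+RSPO3+ cells and 2111 ± 133 in small intestinal CD31+RSPO3+ cells (SD, n = 3 each), the highest of the 8 groups. Timp3 made up 67.4% and 73.4% of these sums. In CD31-RSPO3+ cells Timp2 was the leading inhibitor instead, with 78.1% of the Timp sum in the colon and 85.7% in the small intestine. The summed Mmp level was highest in small intestinal CD31-RSPO3+ cells, at 2125 ± 258 TPM, where Mmp3 (stromelysin 1), Mmp2 (gelatinase A) and Mmp14 (the membrane-anchored MT1-MMP) led. Its mean was lowest in colonic CD31+RSPO3+ cells, at 209 ± 42.3 TPM. Libraries of that group overlapped those of small intestinal (221 ± 52.9 TPM) and colonic CD31+RSPO3- cells (272 ± 196 TPM). The summed Adamts level was 134 ± 59.2 TPM in colonic CD31+RSPO3+ cells, against 1049 ± 198 TPM in colonic CD31+RSPO3- cells, and 179 ± 49.1 against 635 ± 24.7 TPM in the small intestine. Adamts1, which cuts versican and aggrecan, led the Adamts sum in every group. Between 10 and 12 of the 23 Mmp genes, 8 to 16 of the 19 Adamts genes and 3 or 4 of the Timp genes reached a mean of 1 TPM in a group. Of the 46 genes, 39 passed the filter on low counts and entered the tests. The other 7 were Mmp1b with 0 counts over all 24 libraries, Mmp20 with 1, Mmp1a with 13, Adamts16 with 37, Mmp21 with 38, Mmp8 with 79 and Mmp24 with 95. A gene that passed the filter only through the group in which it was high had to differ between groups, so counts over the 39 describe these genes and are no evidence about all 46.

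**Figure D1:**
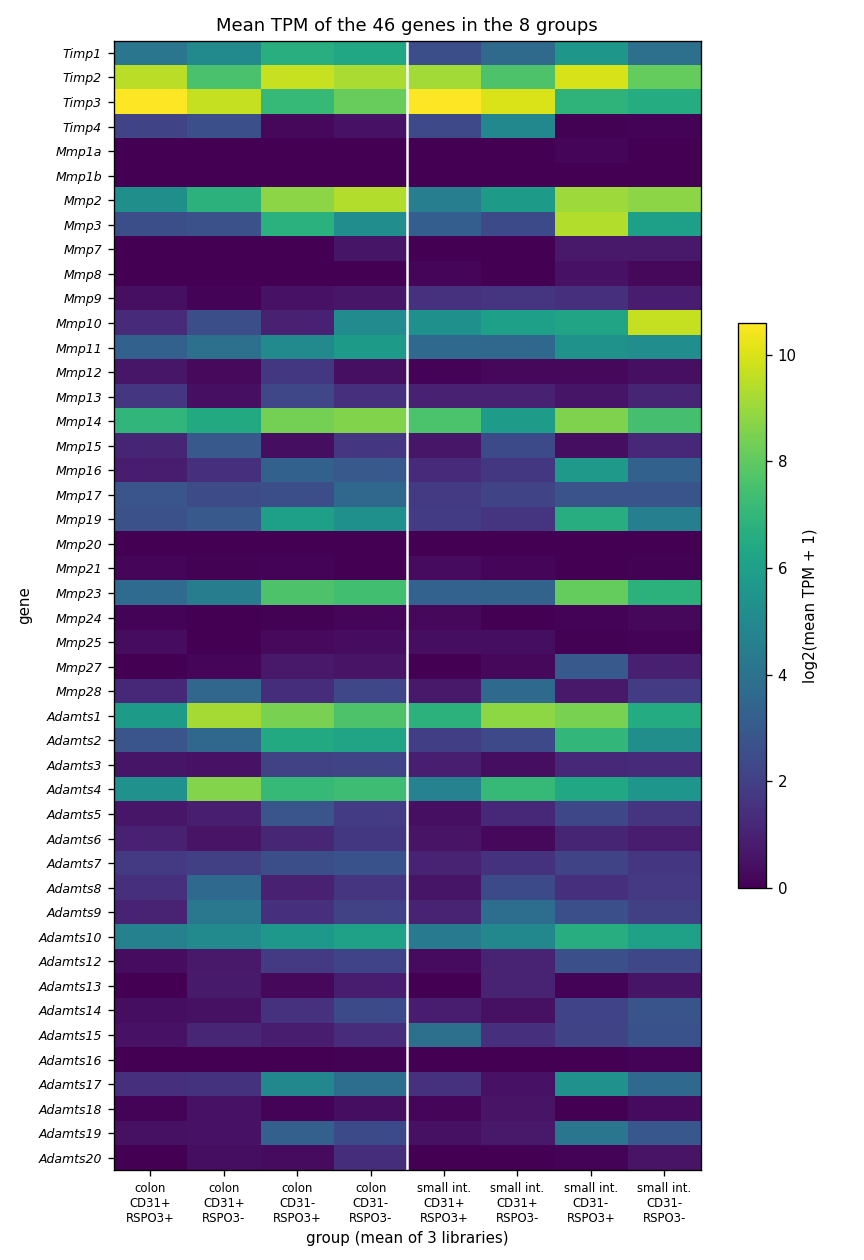
Mean level of each of the 46 genes (rows) in the 8 groups (columns, 3 libraries each), as log2 of mean TPM plus 1. Timp3 is brightest in the CD31+ columns, Mmp2 and Mmp23 in the CD31- columns, and Mmp10 in small intestinal CD31-RSPO3- cells, while Mmp1b and Mmp20 are dark throughout.

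The first question was how RSPO3+ cells differ from RSPO3- cells within the CD31+ gate, where the RSPO3+ fraction had the higher lymphatic sum and the RSPO3- fraction the higher blood endothelial sum. In both tissues the CD31+RSPO3+ cells had lower Adamts1, Adamts4 and Adamts9 and higher Timp2 and Timp3. In the colon 14 of 39 tested genes had an adjusted p (Benjamini-Hochberg, edgeR's quasi-likelihood test) under 0.05 (2 higher, 12 lower), against 23.1% of all 19050 genes tested (9.52% higher, 13.6% lower). In the small intestine 17 passed (6 higher, 11 lower), against 20.1% of all genes (9.23% higher, 10.8% lower). The median log2 fold change of the 39 was -0.66 in the colon and -0.58 in the small intestine, beside -0.05 and 0 over all genes. By role, 5 of the 7 proteoglycan-cleaving ADAMTS genes fell in each tissue. Of the 4 inhibitors, 2 rose and 1 fell in the colon, and 2 rose and 2 fell in the small intestine.

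The 4 inhibitors did not move as one. Timp2, which blocks MMP2 and also takes part in its activation by MMP14, had 1831, 1779 and 1751 CPM in colonic CD31+RSPO3+ libraries, against 301, 397 and 656 CPM in colonic CD31+RSPO3- libraries, a log2 fold change of 1.98 ± 0.24 (± SE here and below; adjusted p = 4.11e-06). Small intestinal values were 1209, 1380.2 and 1393 CPM in RSPO3+ libraries and 365, 448 and 551 CPM in RSPO3- libraries (1.55 ± 0.24, adjusted p = 7.18e-05). All RSPO3+ libraries lay above all RSPO3- libraries of the same tissue. Timp3, the matrix-bound inhibitor, had 4545, 4879 and 4945 CPM in colonic RSPO3+ libraries and 2653, 2407 and 2035 CPM in RSPO3- libraries (1.02 ± 0.20, adjusted p = 0.000682). In small intestinal CD31+ cells its values were 4216, 4656 and 4789 CPM with RSPO3 and 2326, 3473 and 2813 CPM without (0.67 ± 0.20, adjusted p = 0.0195). Groups did not overlap in either tissue, but the small intestinal call was lost without RSPO3+ library 2 or 3, or RSPO3- library 1 and with a fit of the compared libraries alone (adjusted p 0.0591 to 0.0884). Timp1, a secreted inhibitor often induced by cytokines, was low in CD31+ cells, with 12.3, 6.07 and 6.17 CPM in colonic RSPO3+ libraries and 13.4, 14.1 and 19.9 CPM in RSPO3- libraries (-0.95 ± 0.30, adjusted p = 0.0249). The small intestinal values were 3.26, 1.90 and 1.90 CPM in RSPO3+ libraries and 6.14, 5.81 and 3.96 CPM in RSPO3- libraries (-1.15 ± 0.31, adjusted p = 0.0114). All RSPO3+ libraries lay below all RSPO3- libraries. The colonic call was lost without RSPO3+ library 2 or 3, or RSPO3- library 3 and with a fit of the compared libraries alone (adjusted p 0.0837 to 0.134), and the small intestinal call without RSPO3+ library 3 and with limma voom or a fit of the compared libraries alone (adjusted p 0.0534 to 0.17). Timp4, known from heart and vessels, was highest in small intestinal CD31+RSPO3- libraries. It had 5.60, 5.03 and 14.2 CPM in small intestinal RSPO3+ libraries and 36.6, 42.01 and 77.03 CPM in RSPO3- libraries (-2.66 ± 0.72, adjusted p = 0.0111). That call was lost without RSPO3+ library 1 or 2, or RSPO3- library 3 (adjusted p 0.0547 to 0.0577), and the log2 fold change was -3.28 without RSPO3+ library 3. In the colon Timp4 had 7.34, 11.7 and 6.45 CPM in RSPO3+ and 7.44, 16.8 and 5.09 CPM in RSPO3- libraries, which overlapped (-0.20 ± 0.68, adjusted p = 0.874).

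**Figure D2:**
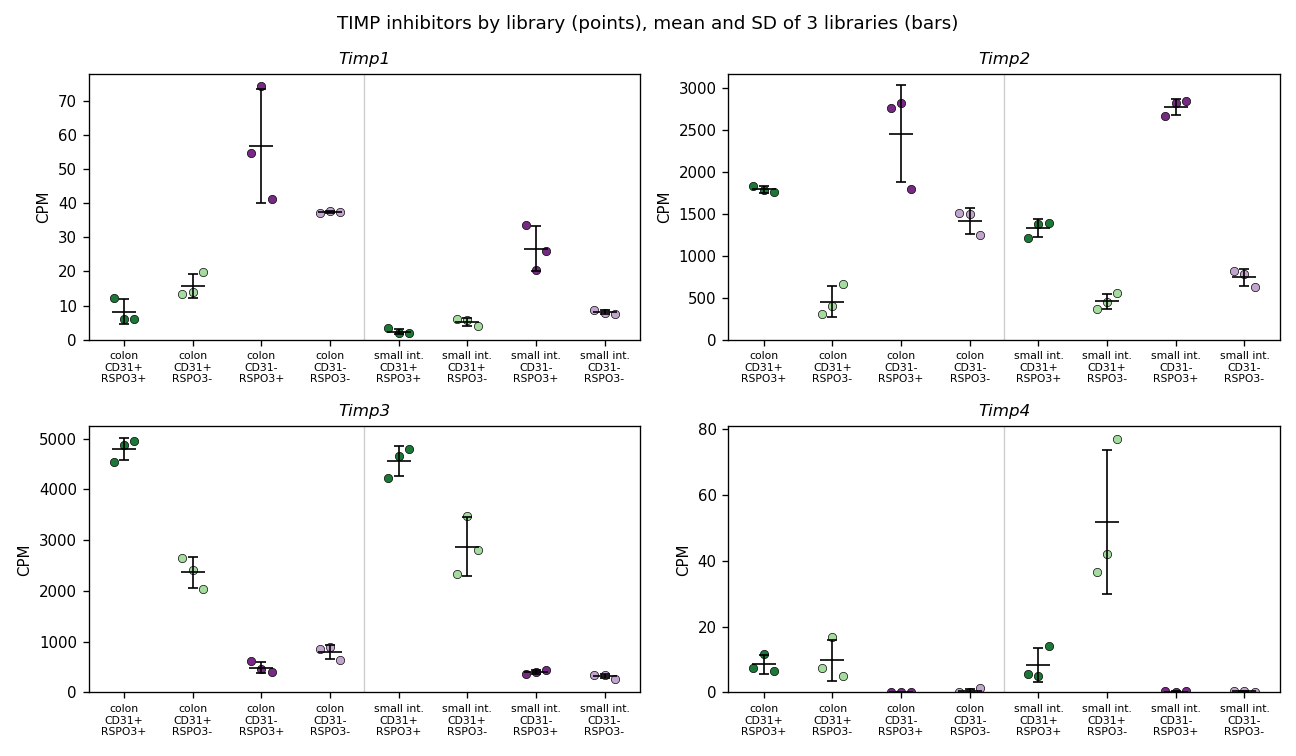
CPM of Timp1 to Timp4 in each library, with 1 panel per gene, points for libraries and bars for the mean and SD of 3 libraries. Timp3 is at or above 2035 CPM in every CD31+ library and at or under 896 CPM in every CD31- library, Timp2 is higher in RSPO3+ than in RSPO3- libraries of each pair, and Timp4 reaches 77.0 CPM only in small intestinal CD31+RSPO3- cells.

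Among the ADAMTS proteases that cut proteoglycans, Adamts1, Adamts4 and Adamts9 fell in CD31+RSPO3+ cells of both tissues. Adamts1 had 256, 119 and 139.8 CPM in colonic RSPO3+ libraries and 2185, 1593 and 1663 CPM in RSPO3- libraries (-3.40 ± 0.34, adjusted p = 3.35e-07). Small intestinal cells had 249.6, 470.4 and 319 CPM with RSPO3, against 1265, 1305 and 1360.4 CPM without (-1.92 ± 0.32, adjusted p = 0.000154). Every RSPO3+ library lay below every RSPO3- library. Adamts4, an aggrecanase, had 157, 80.9 and 108 CPM in colonic RSPO3+ libraries and 1447, 945 and 1047 CPM in RSPO3- libraries (-3.31 ± 0.30, adjusted p = 1.11e-07), and 58.3, 95.49 and 55.8 against 323, 402 and 364 CPM in the small intestine (-2.38 ± 0.29, adjusted p = 4.45e-06). Adamts9, a versicanase of vessels and embryonic tissue, had 3.19, 2.62 and 3.03 CPM in colonic RSPO3+ libraries and 46.2, 52.4 and 44.9 CPM in RSPO3- libraries (-4.02 ± 0.36, adjusted p = 8.52e-08). Its small intestinal values were 3.99, 1.96 and 2.37 CPM in RSPO3+ and 29.6, 45.53 and 18.7 CPM in RSPO3- libraries (-3.48 ± 0.35, adjusted p = 4.03e-07). None of these groups overlapped, and no alternative tried ended any of the 6 calls. Reads of Adamts9 cannot be told apart from those of the antisense genes A730049H05Rik and Gm15737, which share 9.18% and 2.82% of its exon bases and had 660 and 190 counts in all, beside 6950 for Adamts9.

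The promoter windows of Adamts1 and Adamts9 are shown because both genes fell in CD31+RSPO3+ cells of both tissues. Each runs from 250 bases before to 50 after the transcript start of RefSeq (GRCm38.p6), read 5′ to 3′ on the gene's strand, with Adamts1 at chr16:85803064-85803363 (minus strand) and Adamts9 at chr6:92943485-92943784 (minus strand). Capitals mark matches on either strand to a GC box (letters GGGCGG) and to a TATA box (letters TATAAA).
Adamts1: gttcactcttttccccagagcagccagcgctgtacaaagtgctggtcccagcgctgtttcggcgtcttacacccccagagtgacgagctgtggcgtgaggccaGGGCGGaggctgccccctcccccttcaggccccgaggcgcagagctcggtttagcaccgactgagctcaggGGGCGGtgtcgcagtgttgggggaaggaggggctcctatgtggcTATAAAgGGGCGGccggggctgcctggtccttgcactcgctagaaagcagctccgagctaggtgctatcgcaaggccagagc
Adamts9: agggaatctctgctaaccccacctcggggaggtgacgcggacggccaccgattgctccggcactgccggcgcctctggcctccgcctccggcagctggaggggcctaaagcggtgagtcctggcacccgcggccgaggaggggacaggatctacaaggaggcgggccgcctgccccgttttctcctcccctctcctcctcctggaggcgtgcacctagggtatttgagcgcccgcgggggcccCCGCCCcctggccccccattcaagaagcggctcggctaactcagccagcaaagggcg
The Adamts1 window holds 3 GC boxes and 1 TATA box, which starts 32 bases before the transcript start and touches no other match. The Adamts9 window holds 1 GC box and no TATA box. A GC box was found in 35.7% of all 32851 promoter windows of this length and a TATA box in 13.6%, so a match describes the sequence and shows no binding. Among the 32 genes of the set with a window, 18 hold a GC box and 11 a TATA box.

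The other proteoglycan-cleaving members followed different patterns. Adamts5, the main aggrecanase of mouse cartilage, had 3.44, 1.72 and 2.49 CPM in small intestinal CD31+RSPO3+ libraries, against 7.495, 7.75 and 10.8 CPM in the RSPO3- group (-1.75 ± 0.36, adjusted p = 0.00121). Adamts8, a further secreted protease of this group, had 9.08, 0.384 and 2.38 CPM in colonic RSPO3+ libraries and 29.3, 26.6 and 23.9 CPM in RSPO3- libraries (-2.75 ± 0.76, adjusted p = 0.012). The RSPO3- libraries were all higher, but RSPO3+ library 1 stood far above its group, and the log2 fold change was -4.19 without RSPO3+ library 1; the call was lost without RSPO3+ library 3 (adjusted p = 0.0612). Colonic CD31+RSPO3- cells had its highest level of the 8 groups. Adamts15 was the exception among these genes. It had 65.3, 41.8 and 53.7 CPM in small intestinal CD31+RSPO3+ libraries, against 6.85, 3.74 and 8.70 CPM in the RSPO3- group (3.06 ± 0.46, adjusted p = 5.38e-05), with no overlap. In the colon it had 2.28, 0.575 and 2.17 CPM in RSPO3+ and 5.09, 3.28 and 5.995 CPM in RSPO3- libraries (-1.51 ± 0.45, adjusted p = 0.0199), a fall that was lost without RSPO3+ library 2, or RSPO3- library 1 or 3 and with limma voom or a fit of the compared libraries alone (adjusted p 0.0517 to 0.093). The difference between the tissues in this RSPO3 effect was itself tested (colon minus small intestine, -4.57 ± 0.64, adjusted p = 0.000521), and Adamts15 was the only 1 of the 39 genes to pass that test, against 1.93% of all genes (1.29% lower).

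Adamts13, the plasma protease that trims von Willebrand factor, had 0 counts in all 6 CD31+RSPO3+ libraries. It had 2.15, 0.868 and 1.68 CPM in colonic and 3.42, 1.25 and 1.81 CPM in small intestinal CD31+RSPO3- libraries. With a group total of 3 counts taken as the lowest detectable, CD31+RSPO3+ cells were at least 26.4-fold lower in the colon and at least 34.99-fold lower in the small intestine (adjusted p = 0.00191 and 0.00163). Adamts12, which cuts cartilage oligomeric matrix protein, had 0.551, 1.17 and 0.119 CPM in small intestinal RSPO3+ libraries and 4.90, 4.77 and 3.19 CPM in RSPO3- libraries (-2.71 ± 0.48, adjusted p = 0.000276), and -3.48 without RSPO3+ library 2.

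Of the membrane-anchored and other MMPs, Mmp14 rose in small intestinal CD31+RSPO3+ cells, and Mmp15 and Mmp28 fell in both tissues. Mmp14 had 265, 285 and 386 CPM in RSPO3+ libraries and 64.6, 114 and 76.6 CPM in RSPO3- libraries (1.87 ± 0.33, adjusted p = 0.000264). In the colon it had 229.6, 206 and 191 CPM in RSPO3+ and 74.47, 98.6 and 247 CPM in RSPO3- libraries and did not pass (0.58 ± 0.32, adjusted p = 0.207). RSPO3- library 3, the library with the high fibroblast sum, held the value of 247 CPM, and without it the colonic log2 fold change was 1.32 (adjusted p = 0.00066, range over all alternatives 0.00066 to 0.613). Mmp2 depended on the same library. It had 82.4, 62.9 and 71.6 CPM in colonic RSPO3+ libraries and 77.1, 98.9 and 411 CPM in RSPO3- libraries (-1.44 ± 0.41, adjusted p = 0.0141), and -0.23 without RSPO3- library 3 (adjusted p = 0.506). The call was lost without RSPO3+ library 2, or RSPO3- library 3 and with limma voom or a fit of the compared libraries alone (adjusted p 0.0539 to 0.506). In the small intestine Mmp2 had 34.6, 47.96 and 43.7 CPM in RSPO3+ and 80.3, 101 and 67.04 CPM in RSPO3- libraries and did not pass (-0.98 ± 0.41, adjusted p = 0.1), though it did with DESeq2 or a fit of the compared libraries alone (adjusted p 0.0113 to 0.047). Mmp15 (MT2-MMP) had 5.23, 1.47 and 4.66 CPM in colonic RSPO3+ libraries and 29.1, 19.7 and 19.9 CPM in RSPO3- libraries (-2.59 ± 0.64, adjusted p = 0.00548). Mmp28 (epilysin) had 0.421, 1.21 and 2.17 CPM in colonic RSPO3+ libraries and 10.8, 15.1 and 6.21 CPM in RSPO3- libraries (-3.06 ± 0.81, adjusted p = 0.00855), and -3.70 without RSPO3+ library 3. Small intestinal Mmp15 was 2.07, 2.33 and 1.19 CPM in RSPO3+ libraries and 17.9, 13.8 and 8.19 CPM in RSPO3- libraries (-2.82 ± 0.66, adjusted p = 0.00381). Mmp28 had 0.0918, 2.02 and 0.119 CPM in RSPO3+ libraries and 15.2, 8.79 and 11.7 CPM in RSPO3- libraries (-3.95 ± 0.85, adjusted p = 0.00195), and -6.80 without RSPO3+ library 2. The groups did not overlap for either gene in either tissue. The sum of 5 macrophage markers also differed in this contrast. It was 103 to 176 CPM in colonic CD31+RSPO3+ libraries, against 17.8 to 29.2 CPM in the RSPO3- group, and 169 to 273 against 27.1 to 34.46 CPM in the small intestine, with no marker at 0 in any of these groups. Mrc1, a mannose receptor, carried the difference, with 134, 91.8 and 112 CPM in colonic CD31+RSPO3+ libraries, against 5.19, 5.16 and 5.39 CPM in the RSPO3- group, and 216, 213 and 146 against 5.84, 5.12 and 12.3 CPM in the small intestine. Adgre1, Csf1r and C1qa overlapped between the groups in both tissues, and Cd68 in the colon. The sum of 6 smooth muscle markers was lower in CD31+RSPO3+ libraries. It was 147 to 256 against 617 to 1064 CPM in the colon. Small intestinal values were 111 to 229 against 546 to 1179 CPM. The sum of 5 pericyte markers was 114 to 125 against 486 to 824 CPM in the colon. That sum overlapped in the small intestine, at 358 to 449 against 301 to 442 CPM. The part of all these markers in the protease differences was not tested.

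The second question was the same contrast within the CD31- gate, where RSPO3+ cells had the higher fibroblast sum. In the small intestine the CD31-RSPO3+ cells had more Mmp3, Mmp16, Mmp19, Mmp14, Adamts1, Adamts2, Timp1 and Timp2 and less Mmp10. In the colon 6 of 39 genes passed (3 higher, 3 lower), against 9.14% of all genes (4.80% higher, 4.34% lower). In the small intestine 14 passed (11 higher, 3 lower), against 30.4% of all genes (16.1% higher, 14.3% lower). The median log2 fold change of the 39 was 0.03 in the colon and 0.51 in the small intestine, beside 0 and 0.11 over all genes. There another scaling (RLE) moved the median of all genes by -0.11, and the calls of Adamts4, Adamts9 and Mmp23, which were rises, were lost with it (adjusted p 0.0639 to 0.104).

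Of the 3 stromelysins, Mmp3 and Mmp10 passed in the small intestine, in opposite directions, and only Mmp10 passed in the colon. Mmp11 passed in neither tissue. Mmp3, which cuts proteoglycans, laminin and fibronectin and activates other MMPs, had 579, 851 and 1155 CPM in small intestinal CD31-RSPO3+ libraries, against 73.51, 101 and 66.3 CPM in the RSPO3- group (3.42 ± 0.70, adjusted p = 0.000963). All RSPO3+ libraries were above all RSPO3- libraries. Its colonic values were 165, 172 and 104 CPM in RSPO3+ and 36.1, 38.9 and 39.997 CPM in RSPO3- libraries, which also did not overlap but did not pass (1.94 ± 0.67, adjusted p = 0.0756), though it did with no count filter, limma voom, DESeq2 or a fit of the compared libraries alone (adjusted p 0.000789 to 0.044). Mmp10 (stromelysin 2), a close relative of Mmp3, had 78.2, 103 and 82.3 CPM in small intestinal RSPO3+ libraries and 887, 1295 and 739 CPM in RSPO3- libraries (-3.47 ± 0.46, adjusted p = 1.43e-05). In the colon it had 1.66, 0.459 and 1.71 CPM in RSPO3+ libraries and 38.7, 36.2 and 29.2 CPM in RSPO3- libraries (-4.78 ± 0.54, adjusted p = 1.33e-05). Small intestinal CD31-RSPO3- cells had the highest Mmp10 level of the 8 groups. The epithelial sum was also higher in RSPO3- than in RSPO3+ cells, without overlap in the small intestine. In the colon RSPO3+ library 3 (1453 CPM) lay above RSPO3- library 2 (1127 CPM). The sum of 6 epithelial markers was 32.54 to 1453 CPM in colonic RSPO3+ libraries and 1127 to 4127 CPM in RSPO3- libraries, and 35.2 to 125 against 3873 to 6407 CPM in the small intestine, with no marker at 0 in any of these groups. Other sums were higher in RSPO3- cells too. Glial markers (5 genes) summed to 101 to 222 CPM in colonic RSPO3- libraries, against 5.84 to 19.3 CPM in RSPO3+ libraries. In the small intestine they summed to 84.2 to 93.3 against 4.36 to 10.46 CPM. The mesothelial sum was low but also higher without overlap in both tissues, and the smooth muscle and pericyte sums in the colon only. The fibroblast and lymphatic sums ran the other way. The part of all these markers in the Mmp10 difference was not tested.

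**Figure D3:**
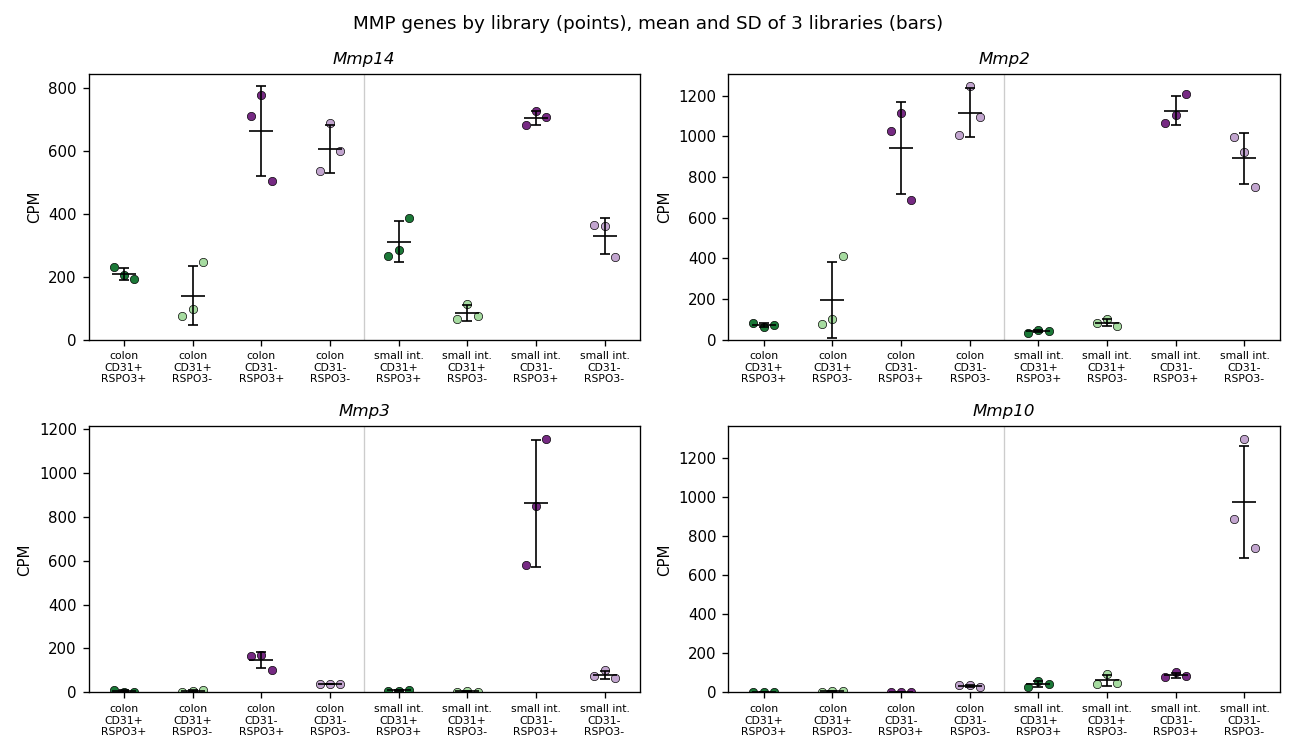
CPM of Mmp14, Mmp2, Mmp3 and Mmp10 in each library, with points for libraries and bars for the mean and SD of 3 libraries. Mmp3 is highest in small intestinal CD31-RSPO3+ libraries (579 to 1155 CPM) and Mmp10 in small intestinal CD31-RSPO3- libraries (739 to 1295 CPM), and colonic CD31+RSPO3- library 3 stands above its group for Mmp14 and Mmp2.

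Mmp3 and Mmp10 lie in a cluster of 10 Mmp genes that spans 427 kb of chromosome 9 (Mmp13, Mmp12, Mmp1b, Mmp3, Mmp1a, Mmp10, Mmp8, Mmp27, Mmp20 and Mmp7, in this order, chr9:7272514-7699585, GRCm38). Their promoter windows are shown because the genes lie close together, with Mmp1a between them, and moved in opposite directions. Mmp3 is at chr9:7445572-7445871 and Mmp10 at chr9:7502092-7502391, both on the plus strand, and capitals mark an AP-1 element (letters TGANTCA) and a TATA box (letters TATAAA).
Mmp3: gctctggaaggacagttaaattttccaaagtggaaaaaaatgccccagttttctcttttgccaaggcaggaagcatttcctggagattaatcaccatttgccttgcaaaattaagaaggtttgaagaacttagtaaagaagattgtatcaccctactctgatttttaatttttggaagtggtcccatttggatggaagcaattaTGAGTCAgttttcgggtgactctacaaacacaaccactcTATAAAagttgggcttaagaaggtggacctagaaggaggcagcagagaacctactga
Mmp10: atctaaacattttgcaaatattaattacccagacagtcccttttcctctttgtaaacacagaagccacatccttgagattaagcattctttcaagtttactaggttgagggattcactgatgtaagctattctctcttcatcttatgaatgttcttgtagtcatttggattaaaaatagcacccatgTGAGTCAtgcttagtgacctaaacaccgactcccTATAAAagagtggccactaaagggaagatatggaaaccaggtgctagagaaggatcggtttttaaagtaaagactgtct
Each window holds 1 AP-1 match followed by 1 TATA box, and the matches do not overlap. The AP-1 match starts 46 bases before the transcript start of Mmp3 and 63 bases before that of Mmp10. Both strands were searched, and 7.81% of all 32851 windows hold this match. Of the 32 genes of the set with a window, 8 hold it (Mmp1a, Mmp1b, Mmp3, Mmp7, Mmp10, Mmp12, Mmp13 and Mmp20), and all 8 belong to the chromosome 9 cluster. Apart from Mmp3 and Mmp10, the cluster was barely expressed in these cells. Mmp27 reached 6.99, 8.74 and 10.4 CPM in small intestinal CD31-RSPO3+ libraries, against 1.004, 0.992 and 1.68 CPM in the RSPO3- group, with no overlap, but did not pass (2.83 ± 1.11, adjusted p = 0.0673), though it did with limma voom or a fit of the compared libraries alone (adjusted p 0.000189 to 0.000475). Mmp13 (collagenase 3) and Mmp12 (macrophage elastase) were highest in colonic CD31-RSPO3+ library 3, at 23.8 and 11.4 CPM, against 1.56 and 0.722 CPM of Mmp13 and 0.390 and 0.656 CPM of Mmp12 in the other 2 libraries of that group. The macrophage sum was 334 CPM in that library, against 24.6 and 18.4 CPM in the other 2. Mmp7 (matrilysin) stayed at or under 1.16 CPM in every library.

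Among the other CD31- differences, Mmp16 (MT3-MMP) had 91.8, 109 and 116 CPM in small intestinal RSPO3+ libraries and 19.3, 21.9 and 18.2 CPM in RSPO3- libraries (2.41 ± 0.65, adjusted p = 0.00805). Mmp19 had 152, 151 and 163 CPM in RSPO3+ libraries and 40.53, 33.9 and 35.51 CPM in RSPO3- libraries (2.08 ± 0.59, adjusted p = 0.0103). These groups stood well apart, but Tmem198b on the opposite strand shares 22.3% of the exon bases of Mmp19, and its reads cannot be separated. Mmp14 had 683, 727 and 710.1 CPM in RSPO3+ libraries and 365, 361 and 264 CPM in RSPO3- libraries (1.10 ± 0.32, adjusted p = 0.0125), and the call was lost without RSPO3+ library 3, or RSPO3- library 3 (adjusted p 0.0692 to 0.0781). Its colonic values overlapped, at 714, 779 and 505 CPM in RSPO3+ and 535, 689 and 599 CPM in RSPO3- libraries (0.13 ± 0.32, adjusted p = 0.863). Mmp2, which MMP14 activates, had 1065, 1106 and 1206 CPM in small intestinal RSPO3+ and 996, 923 and 752 CPM in RSPO3- libraries (0.34 ± 0.40, adjusted p = 0.576), and 1026, 1114 and 685 against 1008, 1246 and 1095 CPM in the colon (-0.25 ± 0.40, adjusted p = 0.784). Mmp2 was thus high in both CD31- fractions and passed in neither tissue. Mmp15 had 0.585, 0.197 and 3.54 CPM in colonic CD31-RSPO3+ libraries, against 7.18, 7.66 and 6.12 CPM in the RSPO3- group (-2.25 ± 0.65, adjusted p = 0.0344), a call that was lost without RSPO3+ library 1 or 2, or RSPO3- library 1, 2 or 3 and with a fit of the compared libraries alone (adjusted p 0.063 to 0.224), and the log2 fold change was -4.21 without RSPO3+ library 3.

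Adamts1 rose in CD31-RSPO3+ cells, the reverse of its direction in CD31+ cells. It had 1803, 1331 and 848 CPM in colonic RSPO3+ libraries and 666, 679.8 and 429.9 CPM in RSPO3- libraries (1.17 ± 0.31, adjusted p = 0.0219), and 1333, 1536 and 1007 against 388, 337 and 256 CPM in the small intestine (1.98 ± 0.32, adjusted p = 9.69e-05). The groups did not overlap in either tissue, but the colonic call was lost without RSPO3+ library 1, or RSPO3- library 3 and with a fit of the compared libraries alone (adjusted p 0.076 to 0.137). Adamts5 had 47.2, 64.6 and 42.6 CPM in colonic RSPO3+ libraries and 19.1, 19.2 and 15.2 CPM in RSPO3- libraries (1.53 ± 0.34, adjusted p = 0.00677). Adamts2, which removes the N-propeptide of procollagens, had 681, 697 and 614 CPM in small intestinal RSPO3+ libraries and 218, 196 and 170.3 CPM in RSPO3- libraries (1.77 ± 0.38, adjusted p = 0.00148). The 2 groups stood well apart.

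The inhibitors again split. Timp2 had 2663, 2814 and 2838 CPM in small intestinal CD31-RSPO3+ libraries, against 816, 784 and 625 CPM in the RSPO3- group (1.90 ± 0.24, adjusted p = 7.68e-06), and 2756, 2814 and 1790.01 against 1503, 1496 and 1239.5 CPM in the colon (0.80 ± 0.23, adjusted p = 0.0378). It was the only gene of the 39 that was called higher in RSPO3+ cells in all 4 comparisons, which share no library, and Mmp15 the only 1 called lower in all 4. How many of all genes were called in the same direction in all 4 was not computed. The colonic CD31- call of Timp2 was lost without RSPO3+ library 1 or 2, or RSPO3- library 1, 2 or 3 and with a fit of the compared libraries alone (adjusted p 0.0823 to 0.15). The small intestinal CD31- call of Mmp15 was lost without RSPO3+ library 1 or 3, or RSPO3- library 1 (adjusted p 0.0586 to 0.0707). Timp1 had 33.6, 20.3 and 26.1 CPM in small intestinal RSPO3+ libraries and 8.65, 7.68 and 7.57 CPM in RSPO3- libraries (1.74 ± 0.30, adjusted p = 0.000193), and in the colon 54.8, 74.45 and 41.2 against 37.2, 37.9 and 37.51 CPM (0.60 ± 0.29, adjusted p = 0.223). The colonic groups did not overlap but did not pass. Timp3 had 614, 458 and 393 CPM in colonic RSPO3+ libraries and 855, 896 and 633 CPM in RSPO3- libraries (-0.70 ± 0.20, adjusted p = 0.0285), a fall that was lost without RSPO3+ library 2 or 3, or RSPO3- library 1 or 2 and with a fit of the compared libraries alone (adjusted p 0.082 to 0.113). In small intestinal CD31- cells it had 363, 395 and 439 CPM with RSPO3 and 339.8, 338 and 268 CPM without (0.34 ± 0.20, adjusted p = 0.205). Timp4 was under 1.2 CPM in every CD31- library and did not pass in the colon (-1.48 ± 0.95, adjusted p = 0.386) or the small intestine (-0.33 ± 0.89, adjusted p = 0.828).

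Whether the RSPO3 difference itself differed between the CD31 gates was tested over both tissues (CD31+ effect minus CD31- effect). In this test 18 of 39 genes passed (3 higher, 15 lower), against 30.2% of all genes (13.1% higher, 17.1% lower). The difference was -4.23 ± 0.32 (adjusted p = 4.66e-09) on the log2 scale for Adamts1, -3.30 ± 0.28 (adjusted p = 2.58e-08) for Adamts4 and -3.78 ± 0.33 (adjusted p = 3.28e-08) for Adamts9. For Adamts5 it was -2.33 ± 0.34 (adjusted p = 2.67e-05) and for Timp1 -2.22 ± 0.30 (adjusted p = 9.13e-06). In each of these 5 genes the RSPO3 effect was thus lower in CD31+ than in CD31- cells, under every alternative tried. Levels of 4 immediate early genes (Fos, Jun, Egr1 and Atf3, a list chosen with earlier results of these data known) are given beside them. These genes switch on within minutes of a stimulus, tissue handling included. Their summed level was 6236, 8515 and 6943 CPM in colonic CD31+RSPO3+ libraries, against 25389, 21783 and 21465 CPM in the RSPO3- group, and 23369, 29360.2 and 29041 against 18097, 20679 and 18923 CPM in the small intestine. In CD31- cells it was 27082, 26020.3 and 18312 against 14148, 13645 and 14304 CPM in the colon and 31279.8, 32477 and 34240.4 against 8769, 10407 and 8609 CPM in the small intestine. The sum thus moved with Adamts1 in 3 of the 4 contrasts and against it in small intestinal CD31+ cells, and its part in these differences was not tested.

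**Figure D4:**
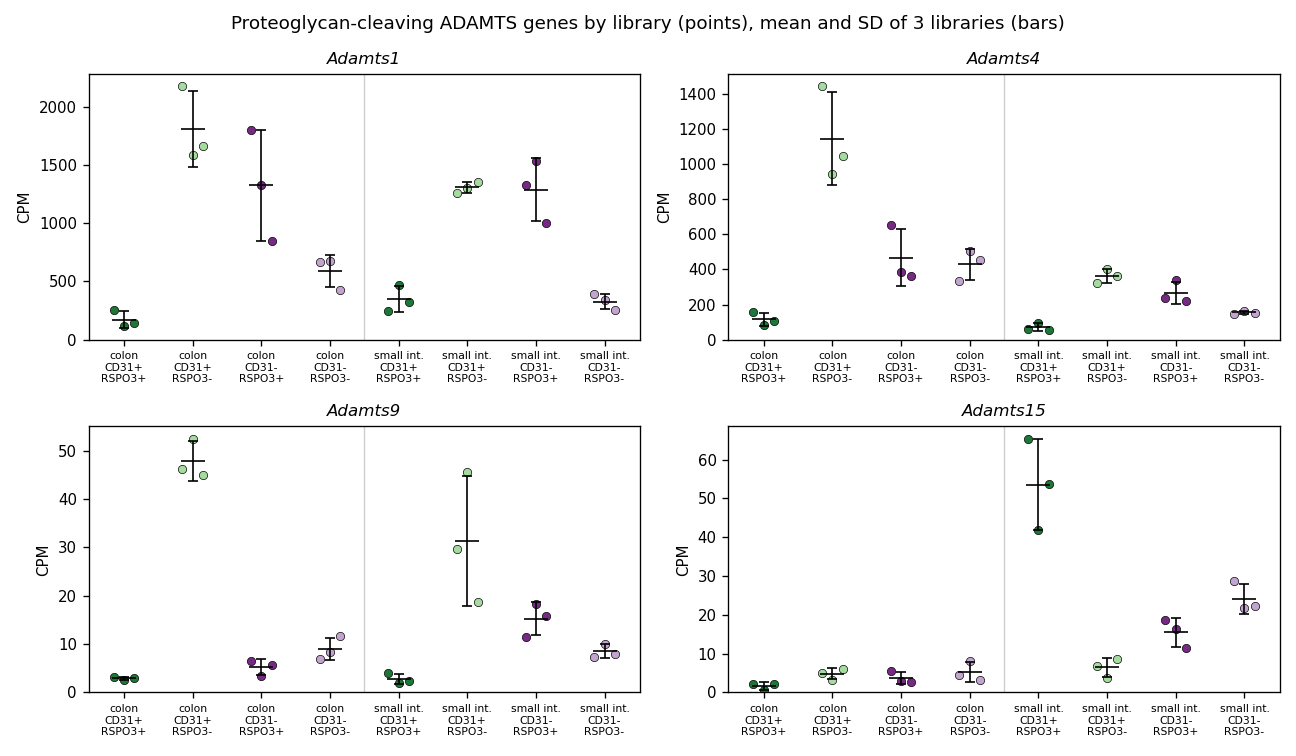
CPM of Adamts1, Adamts4, Adamts9 and Adamts15 in each library, with points for libraries and bars for the mean and SD of 3 libraries. Adamts1, Adamts4 and Adamts9 are lower in CD31+RSPO3+ than in CD31+RSPO3- libraries in both tissues, and Adamts15 is high in small intestinal CD31+RSPO3+ cells.

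**Figure D5:**
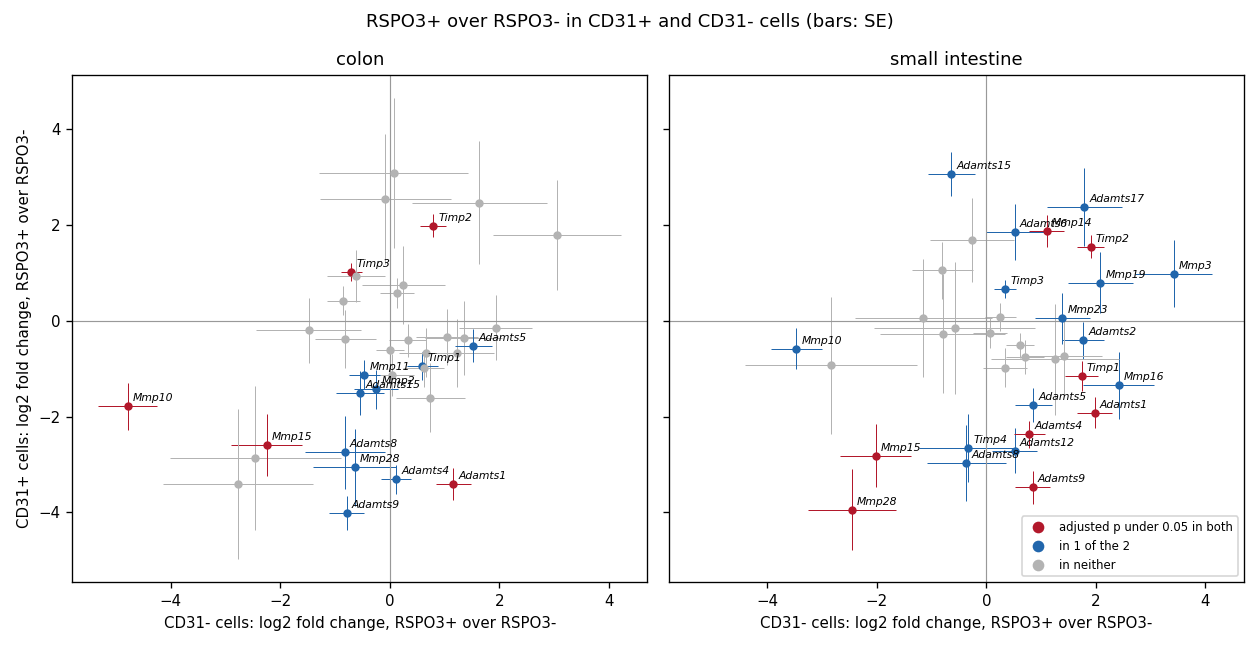
Log2 fold change of RSPO3+ over RSPO3- cells within CD31- cells (x axis) and within CD31+ cells (y axis), with SE bars, for the colon (36 genes) and the small intestine (35 genes); genes at 0 in a group are left out. Adamts1 lies in the lower right quadrant in both tissues, Timp2 in the upper right and Mmp15 in the lower left.

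The third comparison set CD31+ against CD31- cells. CD31+ cells had less of 14 MMP and ADAMTS genes and more Timp3 and Timp4 in all 4 comparisons. In RSPO3+ cells 23 of 39 genes passed in the colon (2 higher, 21 lower) and 26 in the small intestine (3 higher, 23 lower), against 33.1% and 36.5% of all genes (18.2% and 19.6% lower). In RSPO3- cells 27 passed in the colon (7 higher, 20 lower) and 26 in the small intestine (6 higher, 20 lower), against 32.5% and 41.6% of all genes (16.4% and 21.6% lower). The median log2 fold change of the 39 was -1.91 and -1.98 in RSPO3+ cells and -1.89 and -1.49 in RSPO3- cells of colon and small intestine, beside -0.07, -0.01, -0.07 and -0.03 over all genes. Of the 39 genes, 14 were lower in CD31+ cells in all 4 comparisons, which share no library, namely Adamts2, Adamts5, Adamts10, Adamts12, Adamts14, Adamts17, Adamts19, Mmp2, Mmp3, Mmp11, Mmp14, Mmp16, Mmp19 and Mmp23. Timp3 and Timp4 were higher in all 4. The share of all genes called in the same direction in all 4 was not computed, so these counts describe the set only. The fibroblast sum ran with the 14 genes, at 1658 to 4271 CPM in colonic CD31+RSPO3+ and 34979 to 64104 CPM in colonic CD31-RSPO3+ libraries, and none of the 7 markers was at 0 in any group.

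The Timp3 values given above corresponded to log2 fold changes of CD31+ over CD31- of 3.29 ± 0.21 (adjusted p = 6.83e-10) in colonic and 3.51 ± 0.22 (adjusted p = 2.27e-10) in small intestinal RSPO3+ cells, and of 1.57 ± 0.20 (adjusted p = 5.79e-06) and 3.19 ± 0.21 (adjusted p = 8.62e-10) in RSPO3- cells. Syn3 on the opposite strand shares 21.3% of the exon bases of Timp3, but had 2332 counts in all, beside 839117 for Timp3. Timp4 rose by 5.61 ± 0.92 and 5.04 ± 0.85 in RSPO3+ cells and by 4.33 ± 0.80 and 7.37 ± 0.92 in RSPO3- cells of colon and small intestine (adjusted p = 7.69e-05, 8.03e-05, 0.000359 and 2.99e-06). Its CD31- levels were near 0, with 7 and 16 counts over the RSPO3+ groups and 31 and 18 over the RSPO3- groups of colon and small intestine. Timp4 met the count filter only through CD31+ libraries. A difference between the gates was thus built into its being tested, and these p-values are no separate support for it. The size of these folds moved with single libraries, being 4.41 without CD31+ library 3 in the small intestinal RSPO3+ comparison and 3.69 without CD31+ library 2 and 6.18 without CD31- library 3 in the colonic RSPO3- comparison. Timp2 and Timp1 went the other way. Timp2 was lower in CD31+ cells in 3 comparisons (-1.06 ± 0.24, -1.65 ± 0.24 and -0.71 ± 0.23; adjusted p = 0.00121, 2.86e-05 and 0.0204), the last of which was lost without CD31+ library 1, or CD31- library 1 (adjusted p 0.0706 to 0.0786). It did not pass among colonic RSPO3+ cells (-0.46 ± 0.23, adjusted p = 0.144), where it did without CD31- library 3 (adjusted p = 0.0487). Timp1 was lower in CD31+ cells, at -2.79 ± 0.31 and -3.48 ± 0.33 in RSPO3+ cells and at -1.25 ± 0.29 in colonic RSPO3- cells (adjusted p = 7.42e-07, 5.07e-08 and 0.00285), and did not pass in small intestinal RSPO3- cells (-0.58 ± 0.30, adjusted p = 0.127).

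Mmp2 and Mmp14, the pair that acts on the cell surface, were both lower in CD31+ cells. The Mmp2 difference was -3.70 ± 0.44 (adjusted p = 1.83e-06) in colonic and -4.74 ± 0.47 (adjusted p = 9.34e-08) in small intestinal RSPO3+ cells, and -2.51 ± 0.42 (adjusted p = 0.000132) and -3.42 ± 0.44 (adjusted p = 3.95e-06) in RSPO3- cells. That of Mmp14 was -1.67 ± 0.32 (adjusted p = 0.000433) and -1.18 ± 0.32 (adjusted p = 0.00611) in RSPO3+ cells and -2.12 ± 0.33 (adjusted p = 6e-05) and -1.96 ± 0.33 (adjusted p = 8.2e-05) in RSPO3- cells. Colonic CD31+RSPO3- library 3 again set the size among RSPO3- cells of the colon, where without it the differences were -3.71 for Mmp2 and -2.86 for Mmp14. Mmp23, a small cell-surface MMP, had 5.55, 9.08 and 7.23 CPM in small intestinal CD31+RSPO3+ libraries, against 236, 232 and 252 CPM in CD31-RSPO3+ libraries (-5.04 ± 0.59, adjusted p = 9.29e-07). Mmp11 (stromelysin 3) had 4.99, 7.54 and 7.10 CPM in colonic CD31+RSPO3+ libraries, against 37.3, 43.1 and 28.1 CPM in CD31-RSPO3+ libraries (-2.46 ± 0.31, adjusted p = 2.97e-06). In colonic RSPO3- cells the Mmp11 difference was -1.81 ± 0.30 (adjusted p = 0.000108). Chchd10 on the opposite strand shares 5.58% of the exon bases of Mmp11, and reads there cannot be separated. It had 22956 counts in all, beside 12485 for Mmp11. Mmp23 was lower also in colonic RSPO3+ cells, at -4.23 ± 0.57 (adjusted p = 6.95e-06), and at -3.71 ± 0.56 (adjusted p = 2.56e-05) in small intestinal RSPO3- cells. The groups did not overlap for either gene.

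The procollagen N-proteinase Adamts2 had 11.9, 15.6 and 12.2 CPM in small intestinal CD31+RSPO3+ libraries, against 681, 697 and 614 CPM in CD31-RSPO3+ libraries (-5.65 ± 0.46, adjusted p = 7.09e-09). Its colonic values were 41.4, 14.8 and 20.53 CPM in CD31+RSPO3+ and 527, 561 and 326 CPM in CD31-RSPO3+ libraries (-4.20 ± 0.43, adjusted p = 2.18e-07). Of the 3 procollagen N-proteinases, all 3 were lower in CD31+ cells in 3 of the 4 comparisons, and 2 were lower in small intestinal RSPO3+ cells. In RSPO3- cells the Adamts2 difference was -2.59 ± 0.40 (adjusted p = 5.1e-05) in the colon, with -3.40 without CD31+ library 3, and -3.47 ± 0.41 (adjusted p = 1.66e-06) in the small intestine. Adamts14, a further procollagen N-proteinase, had 1.65, 0.830 and 1.12 CPM in small intestinal CD31+RSPO3- libraries, against 25.6, 25.1 and 17.03 CPM in CD31-RSPO3- libraries (-4.22 ± 0.65, adjusted p = 3.12e-05). Adamts10, linked to fibrillin microfibrils, had 43.6, 45.1 and 31.7 CPM in small intestinal CD31+RSPO3+ libraries, against 238, 299 and 201 CPM in CD31-RSPO3+ libraries (-2.62 ± 0.27, adjusted p = 2.07e-07). Adamts12 (-5.37 ± 0.51, adjusted p = 6.4e-08) and Adamts5 (-3.65 ± 0.38, adjusted p = 1.79e-07) were lower in the same comparison, and Adamts12 gave -6.02 without CD31+ library 2. Adamts5 was lower in colonic CD31+RSPO3+ cells too (-3.59 ± 0.37, adjusted p = 2.9e-07). Mmp27 had 0 counts in small intestinal CD31+RSPO3+ libraries, at least 134-fold lower than in CD31-RSPO3+ libraries against the floor of 3 counts (adjusted p = 0.000383). It was named for this pattern after its values were seen. Mmp27 met the count filter only through CD31- libraries, so this p-value is no separate support for a difference between the gates.

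Adamts1, Adamts4 and Adamts9 changed direction with RSPO3 in this contrast. Among RSPO3- cells they were higher in CD31+ than in CD31- cells, by 1.62 ± 0.32 (adjusted p = 0.000574) for Adamts1, 1.42 ± 0.28 (adjusted p = 0.000651) for Adamts4 and 2.41 ± 0.33 (adjusted p = 1.4e-05) for Adamts9 in the colon. In the small intestine the differences were 2.00 ± 0.32 (adjusted p = 4.69e-05), 1.23 ± 0.28 (adjusted p = 0.00148) and 1.89 ± 0.32 (adjusted p = 0.000109) for the same genes. Among RSPO3+ cells Adamts1 was lower in CD31+ cells, with -2.95 ± 0.33 (adjusted p = 8e-07) in the colon and -1.90 ± 0.32 (adjusted p = 7.07e-05) in the small intestine. Adamts4 gave -2.02 ± 0.29 (adjusted p = 1.35e-05) and -1.93 ± 0.29 (adjusted p = 1.65e-05) there, and Adamts9 -0.82 ± 0.33 (adjusted p = 0.061) and -2.44 ± 0.34 (adjusted p = 7.42e-06), of which the colonic Adamts9 value did not pass. Mmp10 was lower in CD31+ than in CD31- cells of the RSPO3- fractions, with -2.71 ± 0.46 (adjusted p = 0.000148) in the colon and -3.96 ± 0.48 (adjusted p = 1.78e-06) in the small intestine. In RSPO3+ cells it did not pass, with 0.28 ± 0.56 (adjusted p = 0.742) in the colon and -1.07 ± 0.43 (adjusted p = 0.058) in the small intestine.

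The fourth comparison set the colon against the small intestine within each fraction, where 4 to 7 of the 39 genes passed. Mmp10 was lower in the colon in all 4 fractions, and Timp1 was higher in all 4. The counts that passed were 4 of 39 genes in CD31+RSPO3+ cells (2 higher, 2 lower), 4 in CD31+RSPO3- cells (3 higher, 1 lower), 7 in CD31-RSPO3+ cells (1 higher, 6 lower) and 6 in CD31-RSPO3- cells (4 higher, 2 lower). The shares of all genes that passed were 6.35% (2.83% higher, 3.52% lower), 4.43% (2.72% higher, 1.71% lower), 7.02% (3.62% higher, 3.40% lower) and 17.6% (8.79% higher, 8.81% lower), in the same order. Median log2 fold changes of the 39 were 0.07, 0.31, -0.26 and 0.31, beside 0.0029, 0.04, -0.01 and 0.10 over all genes. Of the 39, 27 passed in none of the 4, a count for which no share of all genes was computed.

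Mmp10 was lower in the colon, with -4.77 ± 0.52 (adjusted p = 1.13e-05) in CD31+RSPO3+ cells, -3.57 ± 0.48 (adjusted p = 0.000175) in CD31+RSPO3- cells, -6.12 ± 0.56 (adjusted p = 1.96e-06) in CD31-RSPO3+ cells and -4.81 ± 0.50 (adjusted p = 1.14e-06) in CD31-RSPO3- cells. No colonic library overlapped the small intestinal ones in any fraction, and no alternative ended a call. The epithelial sum overlapped between the tissues in all 4 fractions. In CD31+RSPO3+ cells it was 282, 55.8 and 224 CPM in colonic and 61.7, 165 and 130.2 CPM in small intestinal libraries, and in CD31+RSPO3- cells 257, 106 and 680.1 against 172, 258 and 343 CPM. The values for CD31-RSPO3+ cells were 156, 32.54 and 1453 against 35.2, 117 and 125 CPM and those for CD31-RSPO3- cells 4127, 1127 and 2704 against 3873, 4132 and 6407 CPM, and its part in the tissue difference of Mmp10 was not tested. Timp1 was higher in the colon by 1.78 ± 0.31 (adjusted p = 0.00127) in CD31+RSPO3+, 1.57 ± 0.30 (adjusted p = 0.00438) in CD31+RSPO3-, 1.09 ± 0.29 (adjusted p = 0.0278) in CD31-RSPO3+ and 2.23 ± 0.30 (adjusted p = 3.23e-05) in CD31-RSPO3- cells. Its call in CD31-RSPO3+ cells was lost without colonic library 1 or 2, or small intestinal library 2 or 3 (adjusted p 0.0615 to 0.139), in CD31+RSPO3+ cells with limma voom (adjusted p = 0.0647) and in CD31+RSPO3- cells with a fit of the compared libraries alone (adjusted p = 0.0538). Adamts15 was lower in the colon in 3 fractions, at -4.99 ± 0.51 (adjusted p = 6.03e-06) in CD31+RSPO3+, -2.09 ± 0.45 (adjusted p = 0.00644) in CD31-RSPO3+ and -2.19 ± 0.44 (adjusted p = 0.00159) in CD31-RSPO3- cells.

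Other differences passed in fewer fractions. Adamts4 was higher in colonic CD31+RSPO3- (1.66 ± 0.28, adjusted p = 0.00149) and CD31-RSPO3- cells (1.47 ± 0.28, adjusted p = 0.000925). Mmp17 (MT4-MMP) was higher in colonic CD31+RSPO3+ cells (1.12 ± 0.31, adjusted p = 0.0353), a call lost without colonic library 2 or 3, or small intestinal library 1, 2 or 3 and with limma voom or a fit of the compared libraries alone (adjusted p 0.0598 to 0.168). Adamts2 was higher in colonic CD31+RSPO3- cells (1.53 ± 0.39, adjusted p = 0.0263), with 0.73 without colonic library 3, and the call was lost without colonic library 3, or small intestinal library 1 or 3 and with limma voom or a fit of the compared libraries alone (adjusted p 0.0671 to 0.248). In CD31-RSPO3+ cells, where the colon had less Mmp3 (-2.55 ± 0.68, adjusted p = 0.0264), Mmp16 (-2.46 ± 0.66, adjusted p = 0.027), Adamts9 (-1.54 ± 0.33, adjusted p = 0.00548) and Adamts10 (-0.93 ± 0.26, adjusted p = 0.0346), only Adamts9 of these 4 kept its call in every alternative. The call of Mmp3 was lost without colonic library 1, 2 or 3, or small intestinal library 2 or 3 (adjusted p 0.0576 to 0.106), that of Mmp16 without colonic library 1, 2 or 3, or small intestinal library 1, 2 or 3 (adjusted p 0.0558 to 0.0948) and that of Adamts10 without colonic library 2 or 3, or small intestinal library 1 or 2 and with a fit of the compared libraries alone (adjusted p 0.0685 to 0.172). In CD31-RSPO3- cells Timp3 (1.33 ± 0.20, adjusted p = 8.19e-05) and Timp2 (0.93 ± 0.24, adjusted p = 0.00877) were higher in the colon, and the Timp2 call was lost without small intestinal library 3 (adjusted p = 0.0602). Elsewhere the inhibitors did not pass between tissues, with 0.43 ± 0.23, -0.01 ± 0.23 and -0.18 ± 0.23 for Timp2, 0.07 ± 0.20, -0.28 ± 0.20 and 0.29 ± 0.20 for Timp3 and 0.05 ± 0.68, -0.52 ± 1.01 and 0.63 ± 0.84 for Timp4 (adjusted p between 0.348 and 0.996). Timp4 gave -2.41 ± 0.71 (adjusted p = 0.0573) in CD31+RSPO3- cells, and passed without colonic library 2 and with no count filter, limma voom, DESeq2 or a fit of the compared libraries alone (adjusted p 0.000386 to 0.0495). Mmp14 gave -0.58 ± 0.32, 0.72 ± 0.32, -0.09 ± 0.32 and 0.88 ± 0.32 and Mmp2 0.78 ± 0.40, 1.24 ± 0.41, -0.26 ± 0.40 and 0.33 ± 0.40 in the 4 fractions in the order above, and neither passed in any.

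The difference between the tissues in the RSPO3 effect was also tested in CD31- cells (colon minus small intestine). Another scaling (RLE) moved the median of all genes by 0.12 and the share of higher among all calls to 70.0%, against 58.5% with TMM scaling. In this test 3 of 39 genes passed, all lower, against 8.38% of all genes (4.91% higher, 3.48% lower). They were Timp3 (-1.04 ± 0.28, adjusted p = 0.0237), Adamts9 (-1.63 ± 0.45, adjusted p = 0.0299) and Timp2 (-1.11 ± 0.33, adjusted p = 0.0442), for each of which the RSPO3 effect was lower in the colon. The Timp3 call was lost without colonic CD31-RSPO3+ library 2 or 3, colonic CD31-RSPO3- library 1 or 2, small intestinal CD31-RSPO3+ library 2 or 3, or small intestinal CD31-RSPO3- library 3 (adjusted p 0.051 to 0.135), the Adamts9 call without colonic CD31-RSPO3+ library 2, colonic CD31-RSPO3- library 2 or 3, small intestinal CD31-RSPO3+ library 2 or 3, or small intestinal CD31-RSPO3- library 1 or 3 (adjusted p 0.0586 to 0.109) and the Timp2 call without colonic CD31-RSPO3+ library 2 or 3, colonic CD31-RSPO3- library 1, 2 or 3, small intestinal CD31-RSPO3+ library 1, 2 or 3, or small intestinal CD31-RSPO3- library 1, 2 or 3 and with RLE scaling or no count filter (adjusted p 0.0519 to 0.153).

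Of the 39 genes, 14 passed in none of the 4 RSPO3 comparisons. They were Adamts3, Adamts7, Adamts10, Adamts14, Adamts18, Adamts19, Adamts20, Mmp7, Mmp9, Mmp12, Mmp13, Mmp17, Mmp25 and Mmp27. The share of all genes that passed in none of the 4 was not computed. Mmp9 (gelatinase B), which neutrophils and macrophages release, was low throughout, with 3.11, 6.01 and 3.55 CPM in small intestinal CD31-RSPO3+ libraries, against 1.77, 1.82 and 1.73 CPM in the RSPO3- group (1.25 ± 1.17, adjusted p = 0.465). It had 0.878, 0.131 and 1.96 CPM in colonic CD31-RSPO3+ libraries, against 1.24, 1.91 and 0 CPM in the RSPO3- group (-0.08 ± 1.20, adjusted p = 0.984). The small intestinal groups did not overlap but the difference did not pass, and the colonic groups overlapped.

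Activators, other inhibitors and relatives of these proteases were followed in a list of 33 genes, of which 32 were tested. In CD31+ cells 9 of the 32 were higher and 7 lower with RSPO3 in the colon, and 8 were higher and 5 lower in the small intestine, beside 23.1% and 20.1% of all genes called in either direction. In CD31- cells 11 were higher and 5 lower in the colon, and 15 were higher and 2 lower in the small intestine, beside 9.14% and 30.4% of all genes. Adam15, a membrane-anchored relative of the ADAMTS proteases, had 127, 96.1 and 67.6 CPM in colonic CD31+RSPO3+ libraries, against 666, 672 and 472 CPM in the RSPO3- group (-2.64 ± 0.21, adjusted p = 2.48e-08), and in colonic CD31- cells 218, 224 and 160.1 against 95.6, 79.8 and 94.3 CPM (1.16 ± 0.20, adjusted p = 0.00103). Small intestinal cells had 40.99, 52.4 and 48.1 against 538, 516 and 501 CPM in CD31+ cells (-3.46 ± 0.22, adjusted p = 1.58e-09) and 164, 176 and 191 against 63.03, 66.6 and 46.4 CPM in CD31- cells (1.59 ± 0.21, adjusted p = 9.68e-06). Its direction thus reversed between the gates in both tissues. Plat, tissue plasminogen activator, had 28.502, 42.3 and 61.3 CPM in small intestinal CD31+RSPO3+ libraries, against 954, 2672 and 1360.5 CPM in the RSPO3- group (-5.24 ± 0.46, adjusted p = 6.48e-08). Pcsk6, a proprotein convertase, had 525, 474 and 489.7 CPM in colonic CD31+RSPO3+ libraries, against 30.3, 56.3 and 108 CPM in the RSPO3- group (2.93 ± 0.34, adjusted p = 2.31e-06). The small intestinal change of Pcsk6 was 3.00 ± 0.34 (adjusted p = 1.98e-06). Tfpi2, a secreted inhibitor of serine proteases, had 103, 82.98 and 73.96 CPM in small intestinal CD31-RSPO3+ libraries, against 10.4, 9.59 and 13.4 CPM in the RSPO3- group (2.96 ± 0.25, adjusted p = 1.39e-07). In the colon the Tfpi2 change was 1.82 ± 0.24 (adjusted p = 7.02e-05). None of these pairs of groups overlapped. Adamtsl1, an ADAMTS-like matrix protein without a protease domain, changed by 2.76 ± 0.27 (adjusted p = 3.35e-07) in colonic CD31+ and 2.79 ± 0.27 (adjusted p = 5.02e-07) in small intestinal CD31- cells.

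Between CD31+ and CD31- cells, 7 and 6 of the 32 were higher and 15 and 15 lower in RSPO3+ cells of colon and small intestine, and 5 and 8 were higher and 19 and 15 lower in RSPO3- cells. The shares of all genes called in these comparisons were 33.1% and 36.5% in RSPO3+ and 32.5% and 41.6% in RSPO3- cells. Tll1, a procollagen C-proteinase of the tolloid family, was higher in CD31+ cells in all 4, as in colonic RSPO3+ cells with 68.96, 70.52 and 82.3 CPM, against 1.17, 1.18 and 1.58 CPM in CD31- libraries (5.80 ± 0.43, adjusted p = 3.49e-09). Pcolce, which enhances that cleavage, was lower in small intestinal CD31+RSPO3+ libraries (22.6, 33.9 and 32.48 CPM) than in CD31-RSPO3+ libraries (1677, 1692 and 2041 CPM; -5.93 ± 0.48, adjusted p = 7.57e-09). In RSPO3- cells Adam15 was higher in CD31+ cells of the colon (2.75 ± 0.21, adjusted p = 9.2e-09) and the small intestine (3.14 ± 0.22, adjusted p = 1.47e-09), and so was Plat in the small intestine (4.46 ± 0.44, adjusted p = 1.36e-07). Adam10, a sheddase of membrane proteins, gave 2.75 ± 0.18 (adjusted p = 1.1e-09) and 2.32 ± 0.18 (adjusted p = 4.06e-09) in RSPO3+ cells of colon and small intestine. Adamtsl5, an ADAMTS-like protein, gave -4.86 ± 0.37 (adjusted p = 6.17e-09) in colonic RSPO3+ cells, and Plaur, the urokinase receptor, 3.50 ± 0.38 (adjusted p = 7.05e-07) in colonic RSPO3- cells.

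Between the tissues, 4 of the 32 were higher and 2 lower in colonic CD31+RSPO3+ cells, 4 and 2 in CD31+RSPO3- cells, 2 and 2 in CD31-RSPO3+ cells and 12 and 3 in CD31-RSPO3- cells, beside 6.35%, 4.43%, 7.02% and 17.6% of all genes. The smallest adjusted p among CD31+RSPO3+ cells were those of Adam15 (1.04 ± 0.20, adjusted p = 0.00338), the membrane metalloprotease Adam12 (-2.17 ± 0.44, adjusted p = 0.00395) and the proprotein convertase Pcsk5 (1.89 ± 0.45, adjusted p = 0.013). Plat (-1.88 ± 0.39, adjusted p = 0.00784), Pcolce (1.82 ± 0.40, adjusted p = 0.0116) and Adam9 (0.65 ± 0.17, adjusted p = 0.0272) led in CD31+RSPO3- cells. In CD31-RSPO3+ cells Serpine2, an inhibitor of plasminogen activators and thrombin, gave -1.33 ± 0.23 (adjusted p = 0.00109), Plat 2.28 ± 0.40 (adjusted p = 0.0012) and Pcsk5 1.56 ± 0.43 (adjusted p = 0.0337). In CD31-RSPO3- cells Plau, urokinase, had 6.93, 13.4 and 10.8 CPM in colonic libraries, against 1.80, 1.98 and 0.973 CPM in small intestinal libraries (2.71 ± 0.50, adjusted p = 0.000761). Serpine2 gave 1.11 ± 0.23 (adjusted p = 0.00184) in the same comparison.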

How the data were processed

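RNA sequencing of sorted stromal cells of mouse colon and small intestine gave 24 libraries in 8 groups of 3. Per the labels, RNA came from a Qiagen RNeasy extraction and SMART-Seq v4, which keeps no strand, made the libraries. The deposited table holds estimated counts per gene, made by the authors with Salmon 1.3.0 and R 4.0.1 on mm10, per the submitters' processing notes. A second table deposited by the authors holds log2(TPM + 1) values, used here for levels between genes. For the annotation release and filters, nothing is given in the sources used here. Columns name the group and no replicate, so library numbers follow the column order and pair nothing. Gene symbols came from GENCODE M21 (54166 of 54418 IDs matched, 99.5%).

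Counts were rounded and tested in R 4.3.3 with edgeR 4.0.16 (TMM scaling, quasi-likelihood test, all 8 groups in 1 fit, common biological coefficient of variation 0.429, median prior degrees of freedom 3.50). filterByExpr with a minimum count of 10 and a minimum total of 15 kept 19050 genes, over which p-values were adjusted (Benjamini-Hochberg, threshold 0.05). CPM used TMM library sizes. Library totals of 8462041 to 29214487 counts limit precision at low CPM, and the floor of 3 counts covers counting error only. There were 12 pairwise comparisons and 3 tests of differences between effects. The test was also tried, for 1 of the comparisons, on counts simulated from the fit of these data. Alternatives were DESeq2 1.42.0, limma 3.58.1 voom, RLE scaling, no filter, only the compared libraries, and leaving out each of the 24 libraries. Python 3.11.15, pandas 2.3.3 and matplotlib 3.10.9 made tables and figures, with promoters from RefSeq.

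Named genes were Timp1 to Timp4, Mmp2 and Mmp14 in every pairwise comparison. Up to 8 genes per pairwise comparison, these included, and up to 5 per test of a difference were named where they passed with the smallest adjusted p. Up to 3 genes of the related list were named per pairwise comparison in the same way. Of the related list, 1 result between the tissues is not reported here. Genes named beyond this rule (Adamts8, Adamts13 in full, Mmp9, Mmp12, Mmp13, Mmp7 and Mmp27) were picked with their values in view. The same holds where a gene named by the rule in 1 comparison is also given in another. Examples are Adamts15 in colonic CD31+ cells, Mmp15 and Mmp28 in small intestinal CD31+ cells and Mmp3 in colonic CD31- cells. Mmp10 and Adamts4 between the CD31 gates in RSPO3+ cells are further examples. The genes, lists and tests were chosen with earlier results of these data known.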

Additional observations from a re-analysis of the deposited data

Results flagged for a closer look

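The results below are those in which the RSPO3 effect differed between groups in a test of the difference itself (edgeR's quasi-likelihood test, adjusted over 19050 genes). Between the CD31 gates, as the mean over both tissues, the effect in CD31+ cells minus that in CD31- cells was -4.23 for Adamts1 (adjusted p = 4.66e-09), -3.30 for Adamts4 (adjusted p = 2.58e-08) and -3.78 for Adamts9 (adjusted p = 3.28e-08) on the log2 scale. It was -2.22 for Timp1 (adjusted p = 9.13e-06) and -2.33 for Adamts5 (adjusted p = 2.67e-05). For Adamts1 all 6 CD31+RSPO3+ libraries were below all 6 CD31+RSPO3- libraries, and within each tissue the CD31-RSPO3+ libraries were above the CD31-RSPO3- libraries.

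Between the tissues, the effect in colonic minus that in small intestinal CD31+ cells was -4.57 for Adamts15 (adjusted p = 0.000521). In CD31- cells it was -1.04 for Timp3 (adjusted p = 0.0237), -1.63 for Adamts9 (adjusted p = 0.0299) and -1.11 for Timp2 (adjusted p = 0.0442). No explanation of these differences was tested.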

How the results depend on the processing

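Over the alternatives other than leaving out a library, 645 values of named genes kept their direction and their side of the threshold, 19 lost the call, 10 gained one and 2 changed sign. With a library left out the counts were 833, 85, 5 and 13. The numbers of the 39 genes that passed moved by more than 1.5 times with limma voom in colonic CD31- cells by RSPO3 (10), between tissues in CD31-RSPO3- cells (12) and in the tissue difference of the RSPO3 effect in CD31+ cells (2) and CD31- cells (6). DESeq2 gave 7 between tissues in CD31+RSPO3+ cells, 10 in CD31+RSPO3- cells and 3 for the tissue difference in CD31+ cells. A fit of the compared libraries alone gave 12 between tissues in CD31-RSPO3- cells and 9 for the tissue difference in CD31- cells. The cause was not tested.

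Leaving out 1 library at a time gave 10 to 16 genes by RSPO3 in colonic CD31+ cells, 3 to 5 in colonic CD31- cells, 13 to 17 in small intestinal CD31+ cells and 9 to 11 in small intestinal CD31- cells. Between CD31 gates it gave 22 to 25 and 24 to 27 in RSPO3+ and RSPO3- cells of the colon and 25 to 27 and 22 to 26 in those of the small intestine. Between tissues it gave 3 to 6 in CD31+RSPO3+, 3 to 9 in CD31+RSPO3-, 3 to 5 in CD31-RSPO3+ and 5 to 7 in CD31-RSPO3- cells. For the tissue differences it gave 1 to 2 in CD31+ and 0 to 3 in CD31- cells, and 16 to 21 for the difference between CD31 gates.

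The sign changed for values that had not passed. Leaving out 1 library at a time, Timp4 by RSPO3 ran between -0.78 and 0.10 (small intestinal CD31-, highest without RSPO3+ library 2), between -0.50 and 0.44 (colonic CD31+, without RSPO3- library 2) and between -2.02 and 0.36 (colonic CD31-, without RSPO3- library 3). Between tissues, Timp4 ran between -0.25 and 0.67 in CD31+RSPO3+ cells (below 0 at -0.17 and -0.21 without small intestinal libraries 1 and 2, and lowest without colonic library 2) and between -1.22 (without colonic library 3) and 1.14 in CD31-RSPO3- cells, where limma voom gave -0.56. Timp2 ran between -0.42 and 0.22 in CD31+RSPO3- cells (above 0 without small intestinal library 3 and colonic libraries 1 and 2, and 0.0037 with no filter) and between -0.27 and 0.0066 in CD31-RSPO3+ cells (highest without colonic library 3). Mmp14 ran between -0.012 and 1.03 in CD31+RSPO3- cells and between -0.16 and 0.078 in CD31-RSPO3+ cells, in both with the sign change without colonic library 3. No paired analysis was possible because the columns carry no replicate number. Depth limits the low genes: Timp4 in CD31- cells rests on 7 to 31 counts per group.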

Other observations

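Adamts1 and Adamts5 lie 53.1 kb apart on chromosome 16, and both were lower with RSPO3 in small intestinal CD31+ cells (-1.92 ± 0.32 and -1.75 ± 0.36 on the log2 scale; adjusted p = 0.000154 and 0.00121 in edgeR's quasi-likelihood test) and higher in colonic CD31- cells (1.17 ± 0.31 and 1.53 ± 0.34; adjusted p = 0.0219 and 0.00677). Adamts15 and Adamts8 lie 20.1 kb apart on chromosome 9. In small intestinal CD31+ cells Adamts15 was higher with RSPO3 (3.06 ± 0.46, adjusted p = 5.38e-05) while Adamts8 had 0.780, 2.21 and 0.593 CPM with RSPO3 and 7.73, 14.05 and 6.89 CPM without (-2.97 ± 0.79, adjusted p = 0.0102), a call that was lost without RSPO3+ library 1 or 3 (adjusted p 0.0514 to 0.0566). The log2 fold change of Adamts8 was -3.78 without RSPO3+ library 2.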
